A study of Homo sapiens with 4 samples.

Results

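CpG-poor promoter tiles of protein-coding genes were described here as 1000 bp tiles on autosomes of hg19 with 20 or fewer CG dinucleotides. Each overlaps the 2 kb either side of a transcription start site (TSS). The CG limit applies to the tile alone, so the start site nearby can itself be CG-rich. Where CpG-poor promoters are spoken of in the results, these tiles are meant. GENCODE release 44 on GRCh37, which has the coordinates of hg19, gave the start sites. Of the 69094 autosomal tiles listed in the 3 deposited tables of differential methylation, 2375 met this rule, among 9592 listed promoter tiles in all. The tables came from reduced representation bisulfite sequencing (RRBS) of 4 clones of SKOV3, a long-established line of human ovarian cancer cells, with 1 library per clone and no replicate. ShC-S carried a control shRNA, and ShLy75-S carried a shRNA against LY75, an endocytic receptor of the mannose receptor family. In Ly75-KO-S, LY75 was suppressed by CRISPR. In Ly75-OV-S, LY75 was expressed in cells that carried the LY75 shRNA, so that this clone, unlike Ly75-KO-S, still held the shRNA. The study described ShC-S and Ly75-OV-S as mesenchymal (M) and ShLy75-S and Ly75-KO-S as epithelial (E). The tables compared ShC-S with ShLy75-S, Ly75-KO-S with Ly75-OV-S, and a mix of the same 4 libraries. The study gives the mix as M against E clones, which the deposited name of the table does not state, so the grouping of the mix rests on the study's text. A tile is called listed when it stands in a table, that is, when it passed the submitters' thresholds of 25 percentage points and q of 0.01 given in the deposited names. The study's text states a less strict limit on the adjusted p-value, and which was applied was not settled here. The tables hold no methylation level and no read number per library. The depth is therefore unknown, and clone-to-clone variation cannot be told apart from the effect of LY75. The tables do give the authors' own methylation differences, which were set aside here, so neither direction nor size of a change is reported.

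In vertebrate genomes, promoters fall broadly into CpG islands, which are common at housekeeping and developmental genes and mostly lack methylation, and CpG-poor promoters, which are common at genes used in few tissues. CpG-poor promoters are often methylated where their gene is silent, and their methylation varies more between cell types. RRBS reads them unevenly. The enzyme MspI cuts at CCGG, short fragments are kept, and bisulfite turns unmethylated cytosines into uracil, so a CG is measured only where neighbouring MspI sites lie close together. Here a CG was called reachable when it lay in the outer 50 bases of an MspI fragment of 40 to 220 bp, computed from the GRCh37 sequence.

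The promoters described first are those with the fewest CGs that held a TSS and were listed in both single comparisons. Sequences upstream of the TSS are given for ZSCAN5C and RAPGEF4, read 5′ to 3′ on the strand of the gene from GRCh37, with each CG in capitals, so that cCGg is an MspI site. Of the 10 promoters picked by this rule, those of ZSCAN5C and CASP12 hold the canonical TSS of their gene, and the other 8 hold start sites of alternative transcripts. The ZSCAN5C sequence lies at chr19:56713342-56713641 and that of RAPGEF4 at chr2:173724466-173724765, both on the plus strand.
ZSCAN5C: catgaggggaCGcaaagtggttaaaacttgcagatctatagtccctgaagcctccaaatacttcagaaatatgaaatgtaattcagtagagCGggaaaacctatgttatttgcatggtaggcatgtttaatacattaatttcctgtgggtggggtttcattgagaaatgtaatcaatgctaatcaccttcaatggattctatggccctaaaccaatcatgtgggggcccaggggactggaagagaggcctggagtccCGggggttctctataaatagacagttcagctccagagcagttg
RAPGEF4: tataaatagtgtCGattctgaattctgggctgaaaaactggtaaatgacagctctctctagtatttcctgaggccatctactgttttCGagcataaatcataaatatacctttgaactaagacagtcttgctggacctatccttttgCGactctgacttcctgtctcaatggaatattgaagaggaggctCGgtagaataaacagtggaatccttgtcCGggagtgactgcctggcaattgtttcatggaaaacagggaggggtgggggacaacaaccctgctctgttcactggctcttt

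DPP4 encodes a cell surface dipeptidyl peptidase, and its tile at chr2:162927001-162928000 held 5 CGs, of which 1 was reachable. The LAMA2 tile at chr6:129811001-129812000 also held 5 CGs, with 4 of them reachable, and LAMA2 encodes a laminin chain of basement membranes. The third tile with 5 CGs, at chr19:56713001-56714000, belonged to the zinc finger gene ZSCAN5C and had 1 reachable CG. LAMA2 was listed in all 3 tables, whereas DPP4 and ZSCAN5C were absent from the mix table.

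The other 7 tiles of this group held 7 or 8 CGs. Those with 7 CGs belonged to ACSL1, a long-chain acyl-CoA synthetase (chr4:185726001-185727000), to MS4A4A, a membrane protein of macrophages (chr11:59953001-59954000), to CASP12, an inflammatory caspase (chr11:104769001-104770000), and to the olfactory receptor gene OR7A17 (chr19:14995001-14996000). Those with 8 CGs belonged to RAPGEF4, a cAMP-activated exchange factor for Rap proteins (chr2:173724001-173725000), to DAPK2, a calmodulin-dependent kinase linked to cell death (chr15:64332001-64333000), and to FCHO1, which takes part in clathrin-mediated endocytosis (chr19:17865001-17866000). MS4A4A, OR7A17, RAPGEF4 and DAPK2 were in all 3 tables, and ACSL1, CASP12 and FCHO1 in the single comparisons without the mix. The OR7A17 tile had 0 reachable CGs in this model of the fragments.

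The first question was how much of each comparison fell on CpG-poor promoters. The table of ShC-S vs ShLy75-S listed 1655 CpG-poor promoter tiles among 48940 autosomal tiles. Ly75-KO-S vs Ly75-OV-S listed 1014 among 26775, and the mix listed 670 among 20067. As a share of the listed promoter tiles, CpG-poor tiles made up 21.8% (95% Wilson interval 20.9 to 22.7) in ShC-S vs ShLy75-S and 20.9% (19.5 to 22.3) in the mix. In Ly75-KO-S vs Ly75-OV-S the share was 37.4% (35.6 to 39.2). All intervals here cover counting error alone and treat neighbouring tiles as independent. The differences between tables were not tested, since each single table stands for a pair of unreplicated libraries.

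The denominator showed where that difference lay. The genome holds 71906 CpG-poor promoter tiles, of which 11707 (16.3%) had a reachable CG, against 38764 of 46372 (83.6%) promoter tiles with more than 20 CGs. Among reachable tiles, 12.9% (12.3 to 13.5) of CpG-poor promoters and 15.1% (14.8 to 15.5) of richer promoters were listed in ShC-S vs ShLy75-S. In Ly75-KO-S vs Ly75-OV-S the order was the other way round, with 7.82% (7.34 to 8.32) of CpG-poor promoters and 4.24% (4.04 to 4.45) of richer ones. The mix listed 5.36% (4.97 to 5.79) and 6.48% (6.24 to 6.73). Tiles with 20 or fewer CGs outside promoters were listed at 11.2%, 7.13% and 4.73% in the same order of tables, in each a little below CpG-poor promoters. Most of the listed CpG-poor promoter tiles themselves had a reachable CG, namely 91.2%, 90.2% and 93.7%.

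Resolved by CG number, the single comparisons had different profiles. In Ly75-KO-S vs Ly75-OV-S, the listed share of reachable promoter tiles was 12.2% at 1 to 5 CGs, 8.75% at 6 to 10, 7.65% at 11 to 15 and 7.51% at 16 to 20. Beyond the limit it went on down, from 7.22% at 21 to 30 CGs to 2.22% at 51 to 100 and 0.775% above 100. In ShC-S vs ShLy75-S the same classes from 1 to 20 CGs stood at 14.6%, 14.6%, 11.9% and 13.0%, and the richer classes at 14.7%, 16.6%, 15.4% and 10.6%. Both profiles were lowest in the most CG-rich promoters, by a wider margin in the knockout comparison.

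**Figure D1:**
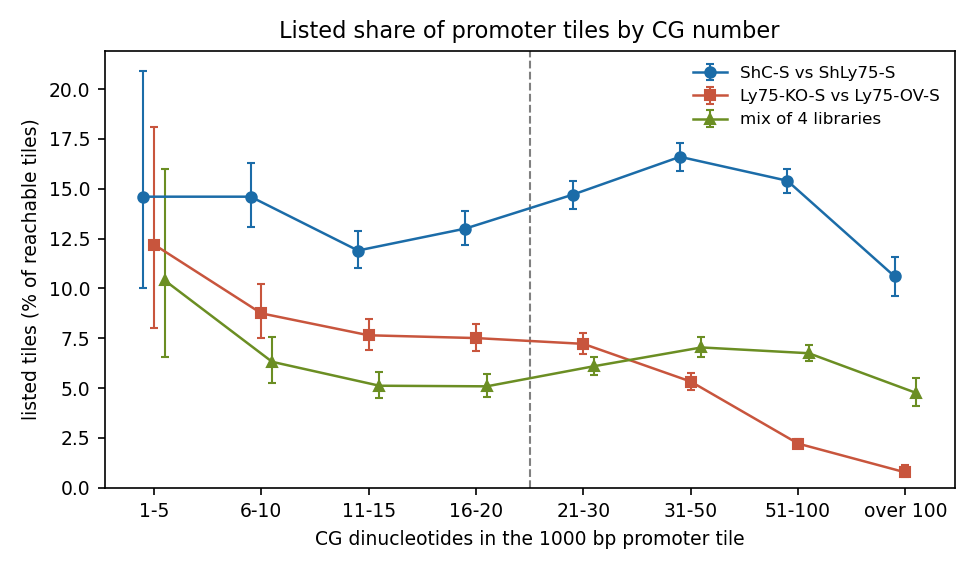
Share of reachable promoter tiles that were listed (y axis, percent) against the number of CG dinucleotides in the tile (x axis, classes), for each deposited table. Points are shares, bars 95% Wilson intervals, and the dashed line marks the limit of 20 CGs. The share of Ly75-KO-S vs Ly75-OV-S goes from 12.2% in the poorest class to 0.775% in the richest, while that of ShC-S vs ShLy75-S stays between 10.6% and 16.6%.

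The limit of 20 CGs cut through a continuous range. Just inside it, tiles with 19 and 20 CGs were listed at 12.2% and 12.5% of reachable tiles in ShC-S vs ShLy75-S, and at 6.36% and 7.00% in Ly75-KO-S vs Ly75-OV-S. Just outside it, tiles with 21 and 22 CGs were listed at 13.1% and 15.3% in the former and at 6.86% and 8.07% in the latter. Among CpG-poor promoters, those with a single reachable CG had the lowest listed shares of all reachable tiles in each table. CpG-poor promoter tiles with 1 reachable CG were listed at 7.32%, 5.83% and 2.62% in the knockdown, knockout and mix tables. With 2 reachable CGs the shares were 15.6%, 8.58% and 7.28%, and with 9 to 20 they were 17.0%, 6.64% and 6.83%.

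The question for the pair of single comparisons was whether the same CpG-poor promoters were listed after different manipulations of LY75. These comparisons share no library, although Ly75-OV-S was made in cells with the LY75 shRNA. Identical tiles numbered 323, which is 19.5% (17.7 to 21.5) of the CpG-poor promoter tiles of ShC-S vs ShLy75-S and 31.9% (29.1 to 34.8) of those of Ly75-KO-S vs Ly75-OV-S. Over all autosomal tiles, 16.0% of the former table and 29.2% of the latter were in both. The knockout share of the CpG-poor promoters thus lay close to its background of 29.2%. The interval of the knockdown share lay above its background of 16.0%, a difference that was not tested. Promoters with more than 20 CGs had 591 tiles in both, which is 9.96% of the knockdown list and 34.8% of the knockout list. Tiles with 20 or fewer CGs outside promoters gave 18.6% and 28.4%, near the values of CpG-poor promoters. Among promoter tiles with a reachable CG, the share of knockdown tiles also in the knockout table was 33.3% at 1 to 5 CGs. It was 25.9% at 6 to 10 CGs, 19.2% and 17.3% in the next classes and 3.66% above 100 CGs. This went alongside the smaller number of CG-rich tiles that the knockout table held. As a share of the knockout tiles the same overlap had no such course, with 43.2% at 6 to 10 CGs, 33.2% at 21 to 30 and 41.0% at 51 to 100. Being in both tables says nothing of direction.

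CpG-poor promoter tiles were mostly listed one at a time. In ShC-S vs ShLy75-S, 331 of 1655 had a neighbouring tile in the same table, a share of 18.1 to 22.0% by its interval, against 36.8% of promoter tiles with more CGs and 10.3% of CpG-poor tiles outside promoters. In the same order the shares were 6.61%, 8.84% and 5.89% in Ly75-KO-S vs Ly75-OV-S and 8.51%, 21.1% and 5.36% in the mix. Over the genome, 16.3%, 83.6% and 8.16% of the tiles of these classes had a reachable CG. Whether the neighbouring tiles were reachable was not taken into account, so these shares do not separate isolation from what RRBS can read.

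Listed tiles held a TSS more often than unlisted reachable ones. Of the 2375 listed CpG-poor promoter tiles, 423 (17.8%) held a TSS and 211 (8.88%) held the canonical TSS of a gene, against 11.8% and 5.09% of the reachable CpG-poor promoter tiles in none of the tables. Coding exon was overlapped by 615 (25.9%) and an untranslated region by 673 (28.3%), while 846 (35.6%) lay in introns alone and 649 (27.3%) outside transcripts. Among unlisted reachable tiles, 21.8% overlapped coding exon and 40.4% lay in introns alone. Here and below, listed tiles set against unlisted reachable ones include those without a reachable CG.

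Counted the other way, 18.4% (16.5 to 20.4) of the 1507 reachable CpG-poor tiles with a TSS were listed in ShC-S vs ShLy75-S, against 12.1% (11.5 to 12.7) of the 10200 without one. The shares were 10.4% (8.97 to 12.1) and 7.43% (6.94 to 7.96) in Ly75-KO-S vs Ly75-OV-S, and 7.50% (6.27 to 8.94) and 5.05% (4.64 to 5.49) in the mix. Around the TSS, tiles whose centre lay within 500 bp upstream were listed at 19.4%, 10.2% and 7.95% in the 3 tables. Tiles centred 2000 to 2500 bp upstream were listed at 9.81%, 7.00% and 3.66%, and those 2000 to 2500 bp downstream at 10.7%, 5.61% and 3.94%. All 3 tables therefore had their highest shares within 500 bp of a TSS, but the tables are not independent, since the mix holds the libraries of the others.

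**Figure D2:**
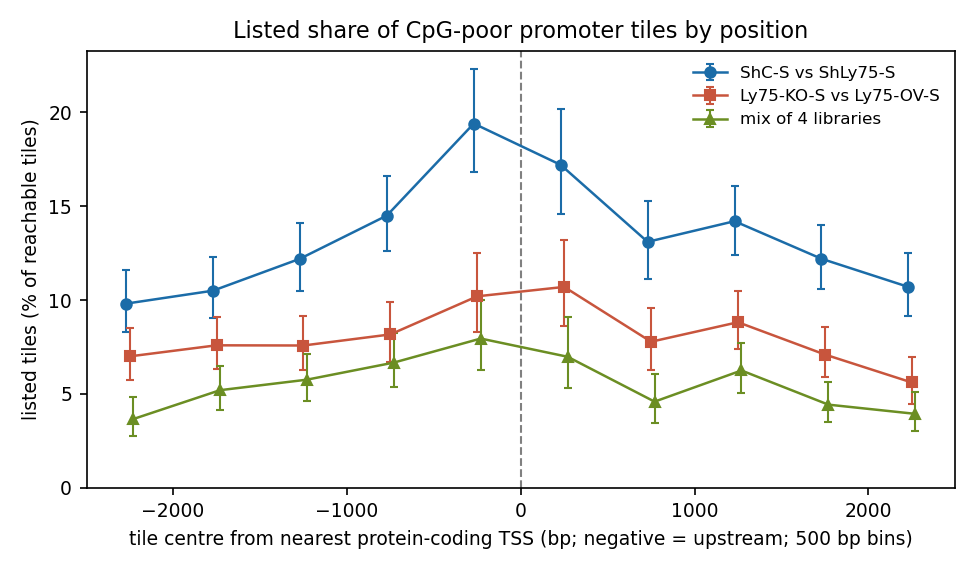
Listed share of reachable CpG-poor promoter tiles (y axis, percent) by the distance of the tile centre from the nearest protein-coding TSS (x axis, bp, classes of 500 bp, negative values upstream). Points are shares and bars 95% Wilson intervals. In ShC-S vs ShLy75-S the share is 19.4% just upstream of the TSS and 9.81% at the far upstream end, and the curves of the other tables also peak beside the TSS.

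The CG content around a CpG-poor promoter tile went with smaller differences. Where the tile with the nearest TSS was itself CpG-poor, 14.0% of reachable tiles were listed in ShC-S vs ShLy75-S and 8.33% in Ly75-KO-S vs Ly75-OV-S. Where that tile held more than 50 CGs, so that the CpG-poor tile flanked a CG-rich start, the shares were 12.1% and 7.46%. Of the 1509 listed reachable tiles in ShC-S vs ShLy75-S, 651 had a CpG-poor tile at the nearest TSS. For 553 of them that tile held more than 50 CGs, so many of these tiles do not belong to CpG-poor starts. Listed tiles had a median of 15 CGs, 3 reachable CGs and a GC content of 48.2%, against 15, 3 and 46.9% in unlisted reachable tiles. A neighbouring tile with more than 50 CGs was present beside 25% of the listed and 22.4% of the unlisted tiles.

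Alu elements are repeats of primate genomes that are rich in CG for their surroundings and often carry MspI sites. The letters TGTAATCCCAGC, which are conserved in Alu elements and were read from the reference, were searched on both strands within each tile. The letters were taken from the SMIM23 tile, which is itself listed. This search and the following counts were chosen after the tables had been seen. The letters were in 518 of the 2375 listed CpG-poor promoter tiles (21.8%) and in 37.8% of the unlisted reachable ones. They were in 34.9% of all reachable CpG-poor promoter tiles, in 21.2% of all CpG-poor promoter tiles and in 21.2% of all promoter tiles. Among reachable CpG-poor promoter tiles, 7.78% (7.00 to 8.64) of those with the letters were listed in ShC-S vs ShLy75-S, against 15.6% (14.8 to 16.5) of those without. The shares were 5.33% (4.68 to 6.06) and 9.15% (8.52 to 9.82) in Ly75-KO-S vs Ly75-OV-S and 3.13% (2.64 to 3.71) and 6.56% (6.03 to 7.14) in the mix. How deeply these repeats were read is unknown.

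Among tiles without the Alu letters, those with a TSS were listed at 20.2% (18.1 to 22.5) in ShC-S vs ShLy75-S, and those without a TSS at 14.7% (13.9 to 15.6). In Ly75-KO-S vs Ly75-OV-S the shares were 10.8% (9.18 to 12.6) and 8.83% (8.16 to 9.55), and in the mix 7.91% (6.54 to 9.53) and 6.30% (5.73 to 6.92). The gap between tiles with and without a TSS was thus smaller without Alu letters, and the intervals overlapped in the knockout and mix tables.

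**Figure D3:**
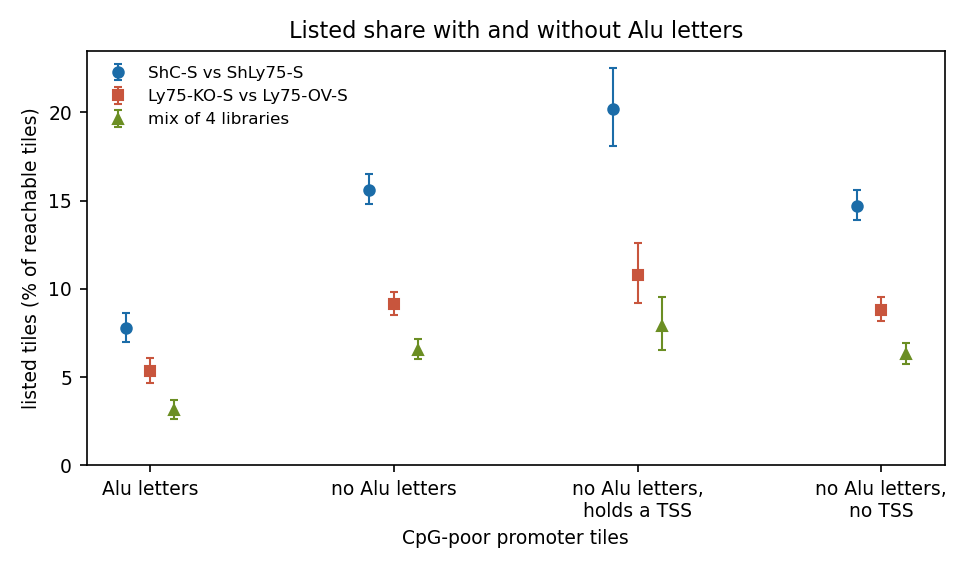
Listed share of reachable CpG-poor promoter tiles (y axis, percent) with and without the Alu letters, and without the letters split by whether the tile holds a TSS (x axis). Points are shares for each table and bars 95% Wilson intervals. Tiles with the letters are lowest in every table, at 7.78% in ShC-S vs ShLy75-S against 15.6% without them.

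Among CpG-poor promoter tiles in both single comparisons, those of PTPRN and EGFL7 had the most reachable CGs, with 11 each. PLCH2, AMPD1 and SMIM23 followed with 9 and are described as the first in genome order, since the tiles of NKX2-6, RECK, JHY, TNNI3, BTBD17, TTC9B and RPS16 also had 9. The PTPRN tile, upstream of a receptor-type phosphatase gene of neuroendocrine cells, lies at chr2:220175001-220176000 with 11 of 18 CGs reachable. That of EGFL7, which encodes a secreted protein of endothelial cells, lies at chr9:139554001-139555000 with 11 of 19 reachable. PLCH2 encodes a phospholipase C, and its tile at chr1:2396001-2397000 had 9 of 20 reachable CGs. AMPD1 encodes the muscle AMP deaminase, and its tile at chr1:115236001-115237000 had 9 of 15, while that of SMIM23 at chr5:171211001-171212000 had 9 of 17. PTPRN, EGFL7 and SMIM23 were also in the mix table. An MspI fragment of the EGFL7 tile, chr9:139554241-139554411, is given on the plus strand of GRCh37 with each CG in capitals, because it shows CGs near the ends, within reach of a read, beside a CG in the middle that is out of reach.
EGFL7: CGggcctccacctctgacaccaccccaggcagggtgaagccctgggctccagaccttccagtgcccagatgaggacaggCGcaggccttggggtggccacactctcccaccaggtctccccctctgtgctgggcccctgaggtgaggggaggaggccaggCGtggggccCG

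Assigned to genes, the listed CpG-poor promoter tiles reached 2287 protein-coding genes of the 18255 that have a CpG-poor promoter tile. Through tiles with a reachable CG they reached 2094 of the 8570 genes that have such a tile. There were 1643 genes in ShC-S vs ShLy75-S, 1037 in Ly75-KO-S vs Ly75-OV-S and 705 in the mix, and 344 had an identical tile in both single comparisons. Most genes, 2046 in number, had 1 listed tile, 222 had 2 and 18 had 3. ABCG1, a cholesterol exporter, had 4, near 3 starts on chromosome 21, of which the adjoining pair shared 1: chr21:43637001-43638000 and chr21:43676001-43677000 were in ShC-S vs ShLy75-S, while chr21:43620001-43621000 and chr21:43677001-43678000 were in Ly75-KO-S vs Ly75-OV-S, and 0 were in the mix.

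Of the 18 genes with 3 tiles, the first by alphabet were ARHGAP23, ARTN, C9 and CCDC33. C9, a terminal complement component made in liver, had 3 adjoining tiles at chr5:39362001-39365000, all in ShC-S vs ShLy75-S, and the one farthest into the gene was also in Ly75-KO-S vs Ly75-OV-S. The tile with its canonical TSS held 9 CGs and 0 reachable ones. ARTN encodes the neurotrophic factor artemin. Its tile chr1:44398001-44399000, which holds a TSS, was in ShC-S vs ShLy75-S, and those at chr1:44397001-44398000 and chr1:44400001-44401000 were in Ly75-KO-S vs Ly75-OV-S. Of the ARHGAP23 tiles, 1 at chr17:36611001-36612000 was in both single comparisons, and the 3 tiles of CCDC33 were all in ShC-S vs ShLy75-S.

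Gene lists were followed, among them groups known for CpG-poor promoters, epithelial and mesenchymal genes, and genes the study names. Ribosomal protein genes stood for a group with CG-rich starts. Each list was followed by the number of its genes with a reachable CpG-poor tile. Over all genes with one, 17.6% had a listed reachable tile in ShC-S vs ShLy75-S, 11.0% in Ly75-KO-S vs Ly75-OV-S and 7.75% in the mix. The lists were chosen with earlier results of these data known, and no list was tested against the others. Their intervals were not corrected for the number of lists. Genes of 1 family often lie side by side and can share a tile.

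Among 88 olfactory receptor genes with a reachable tile, 15 (17.0%, interval 10.6 to 26.2) were listed in ShC-S vs ShLy75-S and 6 (6.82%, 3.16 to 14.1) in Ly75-KO-S vs Ly75-OV-S. OR7A17, OR14A2, OR11G2, OR10H4 and OR1I1 were listed in both (OR7A17 and OR10H4 through tiles without reachable CGs), and the OR14A2 tile at chr1:247911001-247912000 held the canonical TSS. Of 64 genes of keratins, which form the intermediate filaments of epithelia, and keratin-associated proteins of hair, 14 (21.9%) and 5 (7.81%) were listed. KRT77 (chr12:53098001-53099000) and KRTAP9-9 (chr17:39413001-39414000) were in both, the latter through a tile without reachable CGs and so outside these counts. KRT8 and KRT18, the keratin pair of simple epithelia, shared a tile at chr12:53341001-53342000 with 17 CGs, listed in ShC-S vs ShLy75-S. KRT7, KRT16 and KRT4 also had a listed tile there and in neither other table, and KRT5 in Ly75-KO-S vs Ly75-OV-S alone.

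Serpins and kallikreins, inhibitors and proteases of secretions, had 26 genes with a reachable tile. In ShC-S vs ShLy75-S 10 of them were listed (38.5%, interval 22.4 to 57.5, against 17.6% of all genes), and in Ly75-KO-S vs Ly75-OV-S 2 (7.69%, 2.14 to 24.1, against 11.0%). The kallikreins KLK3, KLK5, KLK6, KLK10, KLK12, KLK14 and KLK15 lie in 1 cluster on chromosome 19 and were all in the knockdown table. The interval treats these neighbours as independent and is therefore too narrow. KLK10, at chr19:51525001-51526000 with 20 CGs, was also in the other tables. KLK3, the prostate-specific antigen gene, had a tile at chr19:51360001-51361000 in both single comparisons. The serpins were SERPINA1, SERPINA5, SERPINA12 and SERPINE2 in the knockdown table and SERPINB13 in the knockout table. The SERPINA5 tile and the KLK3 tile listed in both had 0 reachable CGs, so SERPINA5, and KLK3 in the knockout table, stand outside these counts.

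Epithelial and mesenchymal genes bear on the M and E phenotypes of the clones. Of 24 epithelial genes with a reachable tile, 6 (25%, 12.0 to 44.9) were listed in ShC-S vs ShLy75-S and 4 (16.7%, 6.68 to 35.9) in Ly75-KO-S vs Ly75-OV-S. EHF, an epithelial ETS transcription factor, was in all 3 tables through chr11:34654001-34655000, which held a TSS and 10 CGs, 2 of them reachable. The tight junction genes CLDN1 (chr3:190041001-190042000), OCLN (chr5:68787001-68788000) and TJP3 (chr19:3720001-3721000) were in the knockdown table. So were the protease gene PRSS8 and the transcription factor gene GRHL3. OCLN and GRHL3 were also in the mix table. ELF3, another ETS factor, JUP, which encodes plakoglobin, and TJP1, which encodes a scaffold of tight junctions, were in the knockout table.

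Of 16 mesenchymal genes with a reachable tile, 3 (18.8%, 6.59 to 43.0) were listed in ShC-S vs ShLy75-S and 4 (25%, 10.2 to 49.5) in Ly75-KO-S vs Ly75-OV-S. COL1A1 (chr17:48279001-48280000, 8 CGs) and COL5A1, genes of fibrillar collagens, were in the knockdown and mix tables, and THY1 in the knockdown table. The smooth muscle actin gene ACTA2 (chr10:90711001-90712000) was in the knockout and mix tables. TGFB2, a ligand of TGF-beta receptors (chr1:218516001-218517000, 6 CGs), TCF4 and TGFB1I1 were in the knockout table. The intervals of both lists include the share over all genes in each single comparison. With 1 kb either side of a TSS, 3 of 7 mesenchymal genes were listed in the knockout table and 1 of 7 in the knockdown table. The interval of the former (42.9%, 15.8 to 75) leaves out the 10.7% of all genes. It rests on 3 genes. Many intervals were looked at over lists, tables and windows without correction for their number, so no weight can be put on it.

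**Figure D4:**
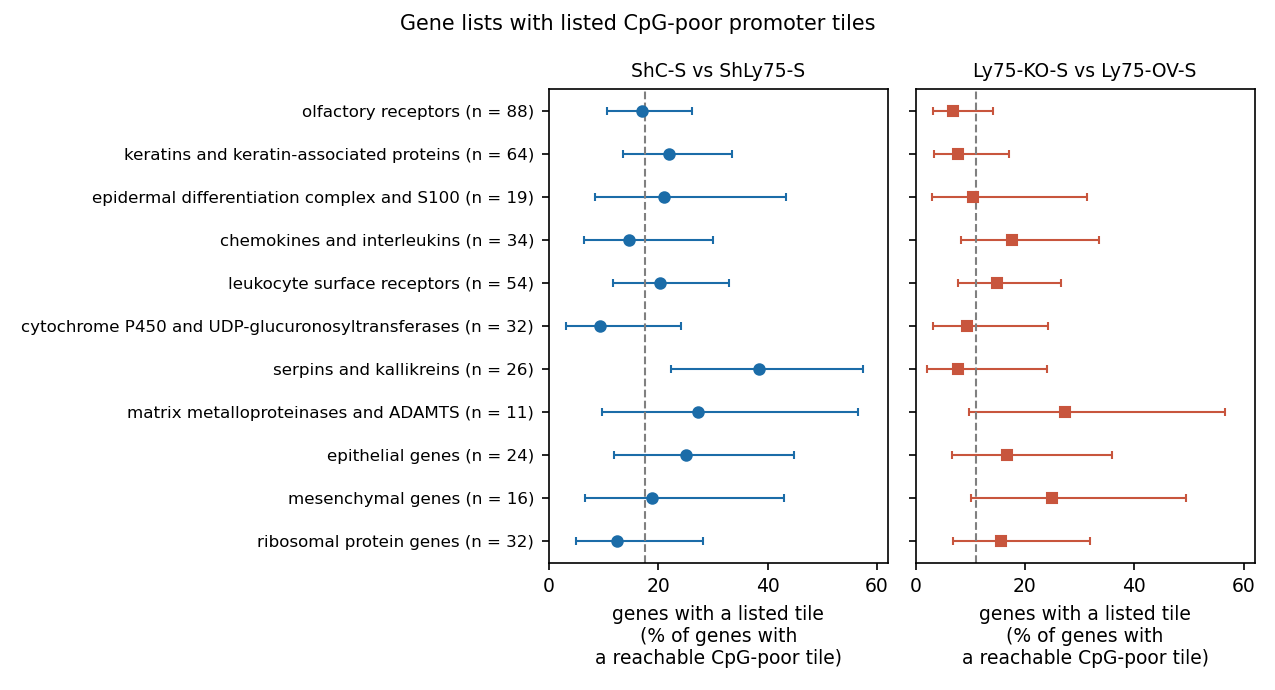
Share of the genes of each list with a reachable CpG-poor promoter tile that had one listed (x axis, percent), for ShC-S vs ShLy75-S (left) and Ly75-KO-S vs Ly75-OV-S (right). Points are shares, bars 95% Wilson intervals, n the genes with a reachable tile, and dashed lines the share over all protein-coding genes (17.6% and 11.0%). Only serpins and kallikreins in ShC-S vs ShLy75-S, at 38.5%, have an interval that leaves out the dashed line. The kallikreins lie in 1 cluster, and the intervals treat genes as independent and are not corrected for the number of lists. With 1 kb windows, which are not drawn, the interval of serpins and kallikreins still leaves it out. So do those of mesenchymal genes and of matrix metalloproteinases and ADAMTS in Ly75-KO-S vs Ly75-OV-S, which rest on 3 listed genes each.

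Chemokines and interleukins were listed for 5 of 34 genes in the knockdown table and 6 in the knockout table, with IL4R (chr16:27327001-27328000), the interleukin-4 receptor chain, in both. Leukocyte surface receptors were listed for 11 and 8 of 54 genes. MS4A4A and MS4A6A were both within 2 kb of chr11:59953001-59954000, which was in all 3 tables, as were tiles of the C-type lectin genes CLEC17A and CLEC9A, the latter without reachable CGs. CD300LF had 3 listed tiles, 2 in the knockdown and 1 in the knockout table. Of the epidermal differentiation complex and S100 genes, 4 and 2 of 19 with a reachable tile were listed, and LCE1F was in both through a tile without reachable CGs.

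Cytochrome P450 and UDP-glucuronosyltransferase genes, which handle drugs and steroids, were listed for 3 of 32 genes in either single comparison, with UGT1A9 (chr2:234578001-234579000) in all 3 tables and CYP11B1 in both single comparisons. Matrix metalloproteinases and ADAMTS proteases were listed for 3 of 11 genes in either. MMP12 (chr11:102744001-102745000) and ADAMTS1 (chr21:28214001-28215000) were in all 3 tables. Ribosomal protein genes were listed for 4 and 5 of 32 genes (12.5% and 15.6%), with RPL6 and RPS16 in all 3 tables.

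Of 11 genes followed as the study's selection, 7 had a CpG-poor promoter tile and 4 a reachable one, of which 1 was listed in ShC-S vs ShLy75-S. That is 25% of very few genes, against 17.6% of all genes. RAMP1 and RAMP2 are both counted, since the study's text uses either name for what appears to be the same selected gene. WNT3, a Wnt ligand, had 1 at chr17:44898001-44899000 in ShC-S vs ShLy75-S, with 17 CGs, 0 of them reachable, and a centre well upstream of the nearest TSS. IFFO1, a member of the intermediate filament family, had 1 at chr12:6663001-6664000 with 20 CGs, 8 of them reachable, in ShC-S vs ShLy75-S and the mix. Neither tile lies within 1 kb of a TSS, so with that window 0 of these genes were listed in ShC-S vs ShLy75-S. HOOK1, RAMP1, RAMP2, CLDN5 and KLF4 had CpG-poor promoter tiles but 0 listed, and for HOOK1, RAMP2 and KLF4 0 of these were reachable. JMJD8, CEND1, EVX2 and APC2 had 0 CpG-poor promoter tiles. Promoter tiles with more CGs were listed in ShC-S vs ShLy75-S for all of the study's selected genes but RAMP1. LY75 itself had 3 CpG-poor promoter tiles, of which 0 were reachable and 0 listed. Of the LY75 promoter tiles with more CGs, 2 were listed in ShC-S vs ShLy75-S and 2 in the mix.

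Of the other genes followed because the study's text names them, TGFB1I1, a focal adhesion adaptor, was listed at chr16:31485001-31486000 in Ly75-KO-S vs Ly75-OV-S, with 20 CGs and 6 reachable. AXIN1, CDH1, EPCAM, EMP1, CDH2, TWIST1, FN1, SNAI1, GRHL2 and RUNX1 had CpG-poor promoter tiles and 0 listed. Of these, EPCAM, EMP1, TWIST1, SNAI1, GRHL2 and RUNX1 had 1 reachable tile each, and AXIN1, CDH1, CDH2 and FN1 had 0. With TGFB1I1, 7 genes had a reachable tile, and 0 and 1 were listed in the single comparisons, against 17.6% and 11.0% of all genes. So few genes cannot be told apart from those shares. Promoter tiles with more than 20 CGs were listed for AXIN1, CDH1, EPCAM, CDH2, TWIST1 and SNAI1 in ShC-S vs ShLy75-S, and for RUNX1 in the mix. Being unlisted can mean too few reads, a small difference or no difference.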

How the data were processed

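RRBS libraries of 4 SKOV3 clones, 1 per clone, were compared by the authors in tiles of 1000 bp. Per the labels and the submitters' processing notes, MspI libraries were read with 50 bp single reads, trimmed with Trim Galore 0.4.1, aligned to hg19 with Bismark 0.16.1 and compared with methylKit. The minimum coverage is not given in the sources used here. The 3 deposited tables list the tiles past the thresholds, with the authors' own difference in percent methylation, p-value and q-value. These 9 columns hold comparisons of the authors and were not used. Only tile positions were used, and 0 of the listed tiles lay past the end of a reference chromosome.

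TSSs were the 5′ ends of basic transcripts of protein-coding genes in GENCODE release 44 on GRCh37. CG and CCGG numbers, MspI fragments of 40 to 220 bp and reachable CGs were computed from GRCh37 with Python 3.11.15, numpy 2.4.6 and pandas 2.3.3 (figures with matplotlib 3.10.9), and the scripts were tested on simulated data. Masked bases were planned as a feature but could not be counted, since the reference was not soft-masked. Shares carry 95% Wilson intervals. The members and lists were chosen with earlier results of these data known. With 1 library per clone, no test was made.

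Genes were named by rule: those the study selected and others its text names, with LY75, the 10 tiles with the fewest CGs that hold a TSS and are in both single comparisons, up to 4 genes per list in both single comparisons, the 5 genes with most listed tiles, and 5 tiles with most reachable CGs in both single comparisons, with ties among tiles taken in genome order and among genes by alphabet. Some sequences are not reported here. Other list genes were named after their values were seen. Alternatives varied the gene models, the window, the CG limit, the gene set, the fragment range, the denominator and the nearest TSS.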

Additional observations from a re-analysis of the deposited data

How the results depend on the processing

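The counts followed the rule. The share of CpG-poor tiles among listed promoter tiles was higher in Ly75-KO-S vs Ly75-OV-S than in the other tables under every alternative that recomputed it. The alternatives of fragment range, denominator and nearest TSS did not recompute it. Values are given for ShC-S vs ShLy75-S, Ly75-KO-S vs Ly75-OV-S and the mix in this order. With start sites of all transcripts there were 3089, 2030 and 1278 tiles (28.1%, 42.8% and 27.8% of promoter tiles), 552 in both single comparisons and 3885 genes. With 1 kb either side there were 1003, 600 and 425 tiles (17.0%, 32.2% and 16.8%), 198 in both and 1399 genes. With 5 kb there were 3131, 2034 and 1294 tiles (28.7%, 44.3% and 28.2%), 580 in both and 4262 genes. Among the gene lists at 1 kb, matrix metalloproteinases and ADAMTS had 3 of 9 genes listed in Ly75-KO-S vs Ly75-OV-S (33.3%, 12.1 to 64.6), and mesenchymal genes 3 of 7 (42.9%, 15.8 to 75), against 10.7% of all genes, a share inside both intervals with the 2 kb window. Each rests on 3 genes, and the intervals were not corrected for the number of lists, tables and windows. Other lists shrank there: ribosomal protein genes to 0 of 11 in the knockout and 1 of 11 in the knockdown table, cytochrome P450 and UDP-glucuronosyltransferase genes to 1 of 20 in either, epidermal differentiation complex and S100 genes to 1 of 13 in either, and the study's selected genes to 0 in ShC-S vs ShLy75-S. With 10 or fewer CGs there were 331, 205 and 141 tiles (4.36%, 7.56% and 4.40%), 84 in both and 467 genes. With 15 or fewer there were 888, 569 and 375 (11.7%, 21.0% and 11.7%), 187 in both and 1288 genes. With 30 or fewer there were 3165, 1767 and 1288 (41.7%, 65.2% and 40.2%), 566 in both and 3951 genes. The start of the gene record alone gave 19.6% in ShC-S vs ShLy75-S, and reachable tiles alone gave 19.9% there and 33.8% in Ly75-KO-S vs Ly75-OV-S. As a share of all CpG-poor promoter tiles, 2.30%, 1.41% and 0.932% were listed, and of those reachable with fragments up to 300 bp, 11.1%, 6.80% and 4.55%. Tiles centred upstream of the TSS made up 49.7%, 51.1% and 52.7% of the listed tiles, and 39.8%, 41.8% and 43.6% against the start of the gene record. Restriction to genes with a RefSeq symbol left the shares of promoter tiles within their intervals.

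No paired analysis was possible because each clone has 1 library and the labels give no replicate number. No replicate was left out, as each clone has 1. Coverage, methylation levels and the spread between clones were not in the tables used. Shares of reachable tiles rest on fragments computed from the genome, not on reads.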

Other observations

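The TATA box letters TATAAA, on the strand of transcription and 40 to 20 bp before the TSS, were searched after the tables had been seen. They preceded 21 of the 647 start sites in listed CpG-poor tiles (3.25%, 95% Wilson interval 2.13 to 4.91) and 3.30% of those in unlisted reachable CpG-poor tiles. Over all start sites, the letters stood before 4.49% of those in CpG-poor tiles and 1.11% of those in tiles with more than 20 CGs, which is 1.90% of all 53703. Listed and unlisted CpG-poor start sites thus differed by less than the counting error.

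By chromosome, the listed share of reachable CpG-poor promoter tiles ran from 10.5% on chromosome 9 to 17.8% on chromosome 21 in ShC-S vs ShLy75-S. In Ly75-KO-S vs Ly75-OV-S it ran from 5.68% on chromosome 16 to 10.5% on chromosome 18. Chromosome 9 was also low in the knockout comparison, at 5.91%, and chromosome 18 also high in the knockdown comparison, at 16.3%. Chromosomes 18 and 21 had only 153 and 129 reachable tiles.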
